A study of Mus musculus with 20 samples.

Results

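Regulatory T (Treg) cells carry the transcription factor Foxp3, and lymph nodes of immunized mice hold them in 2 settings, outside the follicle as Treg cells and inside it as T follicular regulatory (TFR) cells. Each has a Foxp3- counterpart among the CD4 T cells, the naive T cell (Tnaive) and the T follicular helper (TFH) cell. The arrays described here are the 12 of 20 in the series that measured these 4 fractions in peripheral lymph nodes (pLN), 6 arrays of Foxp3+ cells (Treg and TFR) and 6 of Foxp3- cells (Tnaive and TFH), chosen by their labels and not by any measured value. The question was which transcripts separate Foxp3+ from Foxp3- cells in the same direction in the non-follicular pair (Treg against Tnaive) and in the follicular pair (TFR against TFH).

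All mice were B6.Cg-Foxp3<tm1Mal>, a C57BL/6 strain in which green fluorescent protein (GFP) reports Foxp3, of both sexes and 8 to 14 weeks old, and all were immunized under the skin with keyhole limpet hemocyanin in alum. Cells from 8 to 15 mice were pooled before each sort, so that an array stands for a pool and not for a mouse. Each fraction was sorted on day 12 (d12, 2 arrays) and on day 25 (d25, 1 array) after immunization, on GFP and on the surface molecules PD1 and GL7. Tnaive cells were GFP-, Treg cells GFP+, and both were PD1lo and GL7-. TFH cells were GFP- and TFR cells GFP+, both PD1hi. TFH cells were also GL7+ while TFR cells were taken with or without GL7, so the follicular pair differs in its GL7 gate as well as in Foxp3. An unimmunized group was not analysed here. The labels give no replicate numbers, hence replicates are numbered in order of deposition. The p-values measure the spread between pools of both days that remains once differences between array slides are taken out.

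Foxp3 directs the Treg lineage, in which it raises surface molecules such as CD25, the high-affinity chain of the interleukin 2 (IL2) receptor, and silences cytokine genes such as Il2. Treg cells restrain other lymphocytes by taking up IL2, by presenting latent TGF-beta, by degrading extracellular ATP and by cytotoxic granules. TFR cells derive from Treg cells, enter the B cell follicle and there restrain TFH cells and germinal centre B cells.

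Each of 3 slides held 1 array of every pLN fraction, all of the same day, and slide was therefore a block in the model. RNA input, recorded as 50 ng on slide 1 and 40 ng on slides 2 and 3, also went with slide. A fraction always had the same position on the slide, and the effects of position and fraction cannot be told apart. Per pLN array 43.0% to 54.8% of the 39429 probes were detected and 0 were saturated. Local background had a median of 36 to 78 on 11 arrays and of 268 on the array of TFR d12 replicate 2. Of 7 markers of CD4 T cells (among them Cd4, Cd3e and Thy1), 7 were measured and 0 differed by a call in either pair, by limma. Of all tested probes 6.86% were called in the non-follicular and 8.88% in the follicular pair. With 7 genes, 0 calls lie near these shares, and little is read from them. In bulk RNA of sorted cells, fewer cells with a transcript and less of it per cell cannot be told apart.

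A probe was called different in a pair at an adjusted p under 0.05 (limma, Benjamini-Hochberg) and a change of at least 2-fold. Among 18698 probes detected in at least 1 fraction, 409 were called higher in Foxp3+ cells in both pairs (337 gene symbols, 2.19% of the tested probes) and 135 were called lower in both (89 symbols, 0.722%), together 544 probes (2.91%). The non-follicular pair had 1283 calls (6.86%), with Treg cells higher on 924 probes (4.94%) and lower on 359 (1.92%), whereas Tukey's test, run as the study's methods describe, had 164 higher and 176 lower. The follicular pair had 1661 calls (8.88%), with TFR cells higher on 934 (5.0%) and lower on 727 (3.89%). The probes higher in both pairs were thus 44.3% of those higher in Treg and 43.8% of those higher in TFR cells. For the lower probes these shares were 37.6% and 18.6%. In the opposite direction in the 2 pairs, 67 probes were called (0.358%). The pairs have no array in common, although they share slides. The median log2 fold change (Foxp3+ minus Foxp3-) of the shared higher probes was 2.05 in the non-follicular and 1.78 in the follicular pair, and that of the shared lower probes -1.61 and -1.63. Over all tested probes the medians were -0.03 and 0.01.

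**Figure D1:**
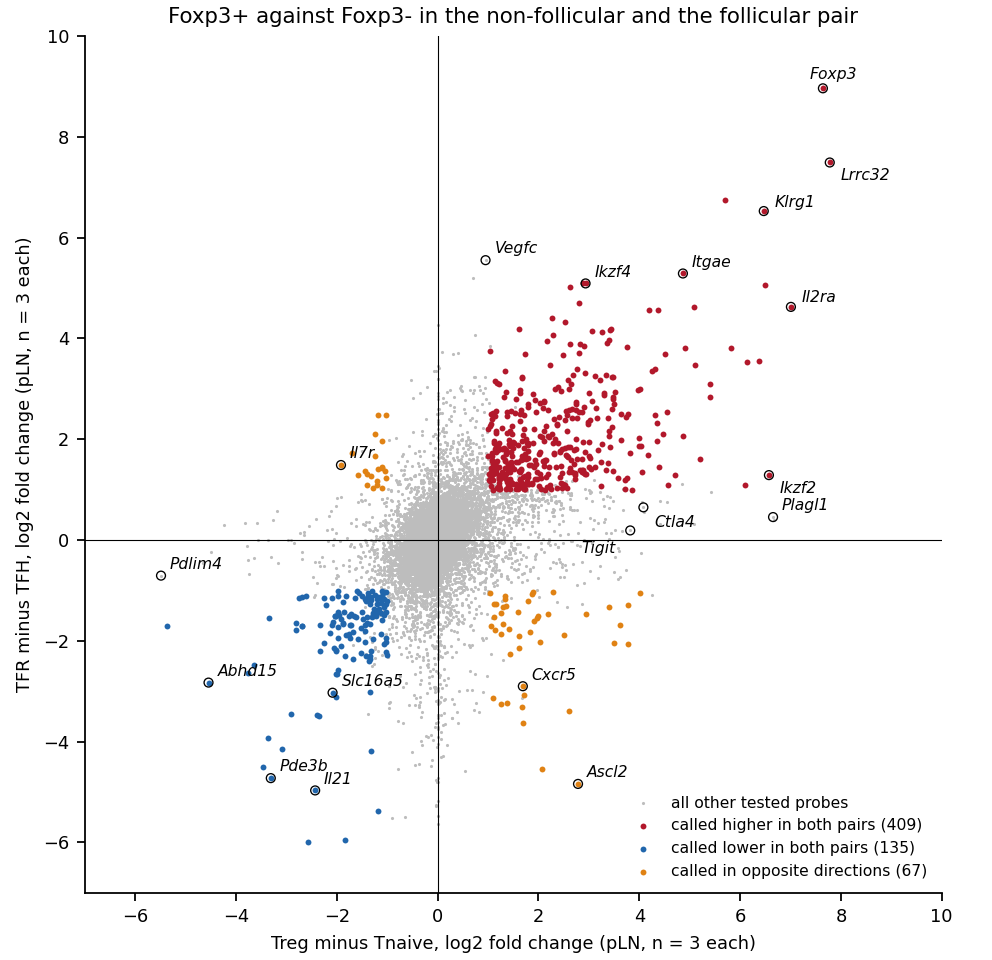
Each point is a tested probe, placed by its log2 fold change of Treg minus Tnaive (horizontal axis, n = 3 arrays each) and of TFR minus TFH (vertical axis, n = 3 arrays each). The 409 probes called higher in both pairs are red, the 135 called lower in both are blue and the 67 called in opposite directions are orange, and Foxp3 and Lrrc32 lie farthest to the upper right.

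All 544 shared probes were also called in the main effect of Foxp3, the mean of Treg and TFR against the mean of Tnaive and TFH cells. This main effect called 1325 probes (7.09%), 887 higher (4.74%) and 438 lower (2.34%). Of the higher ones 409 were called in both pairs, 266 in the non-follicular pair alone, 202 in the follicular pair alone and 10 in neither. Of the lower ones these numbers were 135, 67, 228 and 8. A main effect call by itself therefore did not mark a difference common to both pairs. On the plot of both pairs, 116 of the 409 probes lay at 4-fold or more in each pair and 31 at 8-fold or more. Among the 135 lower probes these were 20 and 4.

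The direction was compared slide by slide, where each of the 3 slides gives a difference for each pair. All 6 differences were above 0 for 409 of 409 shared higher probes, against 14.7% of all tested probes. All 6 were below 0 for 134 of 135 shared lower probes, against 14.6%. The exception was Lbp, which codes for lipopolysaccharide binding protein, with differences in the follicular pair of 0.14, -2.0 and -3.06 on the log2 scale on slides 1, 2 and 3. The 6 Foxp3+ arrays lay entirely above the 6 Foxp3- arrays for 190 of the 409 probes and entirely below them for 66 of the 135, against 3.76% of all tested probes on which they lay apart in either direction. Since the calls come from the same arrays, which nearly fixes the sign, nothing is read from these counts. For the remaining shared probes the ranges of the 6 and 6 arrays overlapped. Levels of the shared higher genes were often unmeasured in the Foxp3- cells, since 175 of the 409 probes were below background on all Tnaive arrays, 36 on all TFH arrays and 31 on both. For these the fold is a lower bound, given as at least so many fold. Detected on all 12 arrays were 149 of the 409 and 78 of the 135. Some genes described below were detected on only some arrays of the dimmer fraction, and their folds are fitted values. In Tnaive cells Itgae, Lrrc32, Nrp1, Ccr2 and Ccr8 were detected on 1 of 3 arrays, and Gpr15, Penk, Tigit and Epcam on 2 of 3. In TFH cells Foxp3 and Ccr2 were detected on 1 of 3 arrays, and Lrrc32, Klrg1 and Gata1 on 2 of 3, as was Il2 on 1 of 3 in Treg cells.

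Foxp3 itself checks the sort. In the order d12 replicate 1, d12 replicate 2 and d25, used for all values below, its normalised intensity was 192, 123 and 141 in Tnaive, 95, 57 and 27 in TFH, 35129, 29850 and 25435 in Treg and 29926, 22047 and 27484 in TFR cells (probe on chromosome X, 7172301 to 7172360, mouse build mm9). The groups did not overlap, as the gate on GFP requires, and the log2 fold change was 7.64 (SE 0.29) in the non-follicular and 8.96 (SE 0.29) in the follicular pair. With the probe detected on 1 of 3 TFH arrays, the second value and the difference between the pairs of 1.32 (SE 0.41, adjusted p 0.0606, limma) rest partly on signals that did not count as detected. Flicr, a non-coding RNA transcribed beside Foxp3, was at least 13.6-fold higher in Treg than in Tnaive and at least 9.09-fold higher in TFR than in TFH cells.

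Lrrc32 codes for GARP, which holds latent TGF-beta on the Treg cell surface. Its normalised intensity was 145, 76 and 113 in Tnaive and 155, 79 and 85 in TFH cells, against 25207, 24578 and 21442 in Treg and 15150, 18655 and 21390 in TFR cells (chromosome 7, 105650282 to 105650341). The log2 fold changes of 7.78 (SE 0.26, adjusted p 7.57e-07) and 7.49 (SE 0.26, adjusted p 8.56e-07) were the largest after Foxp3 among the shared genes named, ranked by the smaller of both pairs. Klrg1, an inhibitory receptor for cadherins, was at 20, 20 and 24 in Tnaive and at 49, 47 and 110 in TFH cells. It reached 2532, 2071 and 1257 in Treg and 4710, 6739 and 6271 in TFR cells (chromosome 6, 122220629 to 122220688). Klrg1 was thus at least 24.6-fold higher in Treg cells, and by 6.53 (SE 0.36, adjusted p 6.1e-06) on the log2 scale in TFR cells, and its TFR arrays all exceeded its Treg arrays.

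Il2ra, the gene of CD25, was the strongest receptor of the IL2 pathway. Its normalised intensity was 210, 106 and 207 in Tnaive, 743, 760 and 537 in TFH, 28054, 20081 and 17418 in Treg and 17697, 14256 and 18067 in TFR cells (chromosome 2, 11614744 to 11614803). The Foxp3+ arrays lay far above both Foxp3- fractions, with log2 fold changes of 7.01 (SE 0.24) and 4.63 (SE 0.24). Among the Foxp3- cells, TFH arrays exceeded Tnaive arrays, and the difference between the pairs of -2.38 (SE 0.35, adjusted p 0.00244, limma) passed the test. Itgae, the integrin chain CD103 that binds E-cadherin, had log2 fold changes of 4.87 (SE 0.40) and 5.29 (SE 0.40). Il1rl1, the receptor for IL33, was at 45, 93 and 134 in Tnaive, 118, 144 and 264 in TFH, 3508, 2527 and 2502 in Treg cells, and at 3233 and 3901 in TFR cells of d12, with the d25 array above both. It was at least 34.2-fold higher in Treg cells, and its log2 fold change was 4.63 (SE 0.33, adjusted p 2.41e-05) in the follicular pair.

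Gzmb, the granule protease granzyme B, showed more spread among the Foxp3+ arrays. Its normalised intensity was 55, 87 and 88 in Tnaive, 434, 482 and 167 in TFH, 6726, 6135 and 1821 in Treg and 3978, 8170 and 3017 in TFR cells. The d25 array was the lowest of the TFH, the Treg and the TFR arrays, and all Foxp3+ arrays lay above all Foxp3- arrays. Entpd1, the ectoenzyme CD39 that degrades extracellular ATP, was at 473, 400 and 500 in Treg and at 262, 398 and 544 in TFR cells. It was below background in both Foxp3- fractions, with bounds of at least 5.98-fold and at least 7.39-fold. The remaining genes among the 15 leading ones were Gm4956, Dnah7a, Gsta4, Coro2a, Rln3 and Socs2. Their smaller log2 fold change lay between 3.54 (Socs2, follicular pair) and 5.71 (Gm4956, non-follicular pair) as fitted. Dnah7a has near-identical copies in the genome that a probe may not tell apart. Rln3, which codes for the peptide relaxin 3, was below background in Tnaive and TFH cells and at least 4.10-fold and 5.78-fold higher in Treg and TFR cells.

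Since Foxp3, STAT5 downstream of the IL2 receptor and Runx proteins bind the control regions of Treg genes, the 250 bases upstream of each gene's start were searched on both strands for 3 letter strings, TGTTTAC (forkhead), TTCNNNGAA (STAT) and TGTGGT (Runx). They are shown for Foxp3, for Il2ra and Il1rl1 (higher in both pairs) and for Il2 (lower in both), 5′ to 3′ on the gene's strand, from RefSeq on mouse build GRCm38.p6. The Foxp3 sequence is chrX:7580233-7580482 (+ strand, the second of 2 listed starts), that of Il2ra chr2:11642542-11642791 (+), that of Il1rl1 chr1:40439379-40439628 (+, the second of 2 listed starts) and that of Il2 chr3:37125955-37126204 (-). Capitals mark the matches, a STAT string in Foxp3 and a forkhead string (on the other strand) and a Runx string in Il1rl1. The sequences of Il2ra and Il2 held no match, and neither did the 250 bases before the first listed start of Foxp3 or of Il1rl1.
Foxp3: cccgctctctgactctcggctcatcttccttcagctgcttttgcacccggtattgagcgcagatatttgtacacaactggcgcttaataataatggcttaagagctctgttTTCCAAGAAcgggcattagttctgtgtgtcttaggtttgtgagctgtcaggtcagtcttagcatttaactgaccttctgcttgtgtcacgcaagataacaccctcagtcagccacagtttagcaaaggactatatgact
Il2ra: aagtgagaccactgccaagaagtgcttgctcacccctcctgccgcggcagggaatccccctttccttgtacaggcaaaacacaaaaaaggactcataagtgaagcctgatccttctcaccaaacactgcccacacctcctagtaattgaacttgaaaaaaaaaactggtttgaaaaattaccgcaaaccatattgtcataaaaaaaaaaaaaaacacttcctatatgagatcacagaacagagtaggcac
Il1rl1: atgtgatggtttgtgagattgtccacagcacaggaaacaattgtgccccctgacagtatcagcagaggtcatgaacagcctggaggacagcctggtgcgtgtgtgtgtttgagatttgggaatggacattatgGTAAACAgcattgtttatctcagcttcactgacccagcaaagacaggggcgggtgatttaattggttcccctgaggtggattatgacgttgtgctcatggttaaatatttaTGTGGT
Il2: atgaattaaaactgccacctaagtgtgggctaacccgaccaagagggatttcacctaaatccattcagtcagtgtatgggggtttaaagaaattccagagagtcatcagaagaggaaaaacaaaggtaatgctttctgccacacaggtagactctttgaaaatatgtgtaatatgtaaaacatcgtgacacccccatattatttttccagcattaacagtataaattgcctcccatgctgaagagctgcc
Of the 318 genes higher in both pairs 240 had an upstream sequence in the table, as had 56 of the 80 lower ones and 9478 of the 12260 tested genes (1 probe per symbol). The forkhead string lay upstream of 11 (4.58%) of the higher, 3 (5.36%) of the lower and 264 (2.79%) of the tested genes. The STAT string was found in 19 (7.92%), 1 (1.79%) and 685 (7.23%), and the Runx string in 38 (15.8%), 3 (5.36%) and 1248 (13.2%). The median number of CpG sites in the 250 bases was 10.25 for the higher, 17 for the lower and 15 for all tested genes. These are descriptions of short strings in this window, and no test was run on them.

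Pde3b led the genes lower in both Foxp3+ fractions. It codes for a phosphodiesterase that breaks down cyclic AMP. Its normalised intensity was 15716, 21929 and 20534 in Tnaive and 20977, 20684 and 26467 in TFH cells, but 1478, 2197 and 2231 in Treg and 799, 737 and 1058 in TFR cells (chromosome 7, 121681370 to 121681429). Both Foxp3- fractions lay above all Foxp3+ arrays, with log2 fold changes of -3.31 (SE 0.14, adjusted p 2.87e-06) and -4.72 (SE 0.14, adjusted p 5.89e-07), and the difference was larger in the follicular pair by -1.41 (SE 0.20, adjusted p 0.0022, limma), a call lost without slide 3 (-1.40, adjusted p 0.0525). Ntrk3, the neurotrophin receptor TrkC, had log2 fold changes of -3.08 (SE 0.16) and -4.15 (SE 0.16). App, the amyloid precursor, had -3.77 (SE 0.24) and -2.64 (SE 0.24). Tgfbr3, a TGF-beta coreceptor known as betaglycan, was at 9953, 7957 and 8597 in Tnaive and 2662, 4091 and 4531 in TFH cells, and at 1759, 1573 and 1901 in Treg and 665, 714 and 1068 in TFR cells. Its log2 fold changes of -2.34 (SE 0.19) and -2.20 (SE 0.19) did not differ by a call between the pairs (0.14, SE 0.27, adjusted p 0.779).

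Il2 and Il21, cytokines of activated helper cells, were also among the 10 leading lower genes. The normalised intensity of Il2 was 87, 396 and 536 in Tnaive, 1186, 2213 and 1500 in TFH, 68, 27 and 77 in Treg and 111, 160 and 155 in TFR cells. The Tnaive array of d12 replicate 1 thus lay within the range of the TFR arrays. The follicular log2 fold change was -3.50 (SE 0.58, adjusted p 0.00239). The non-follicular one of -2.35 (SE 0.58, adjusted p 0.0218) lost its call without slide 2 or 3, or without the Tnaive or the Treg array of either slide, at values from -2.45 to -1.57. Il21 was at 17879, 16636 and 15019 in TFH and at 429, 373 and 914 in TFR cells, and its follicular value was -4.97 (SE 0.39, adjusted p 3.8e-05). All Treg arrays stood at the floor of 20 while Tnaive arrays were at 65, 188 and 103, a difference of at least 1.69-fold. The other leading lower genes were Fam222a, Abhd15, Cnga1 and Slc16a5, each called in both pairs. Of these, Cnga1 codes for a channel gated by cyclic nucleotides, and it had log2 fold changes of -2.39 (SE 0.19) and -3.47 (SE 0.19).

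Of 22 genes of Treg identity and surface receptors, 21 were higher in Treg than in Tnaive cells and 17 were higher in TFR than in TFH cells, 17 of them in both pairs, and 0 were lower in either (of all tested probes 4.94%, 5.0% and 2.19% were higher in Treg, in TFR and in both). The median log2 fold change of the list was 3.91 in the non-follicular and 2.59 in the follicular pair. Higher in both were, among others, Ikzf4 (Eos, a partner of Foxp3 in silencing genes; 2.93 and 5.09), Capg (an actin-capping protein; 2.52 and 2.38), Swap70 (2.59 and 3.18), Tnfrsf18 (GITR; 1.80 and 1.63) and Gpr83. The levels of Gpr83 were at 903, 947 and 774 in Treg and at 83, 178 and 261 in TFR cells. It was below background in both Foxp3- fractions, so that the bounds were at least 10.3-fold and 3.02-fold. Ikzf2 (Helios), Nrp1 and Il2rb passed in both pairs by a narrow margin in the follicular one, with log2 fold changes of 1.29, 1.10 and 1.00. Without slide 2 or slide 3 each of these 3 calls was lost, and single arrays ended them as well (values from 1.04 to 1.25 for Ikzf2, 0.99 to 1.18 for Nrp1 and 0.90 to 0.99 for Il2rb). Ctla4, Tigit, Izumo1r and Nt5e were called in the non-follicular pair alone, and Tnfrsf9 in neither (0.09 and 0.38). Tnfrsf1b, the second TNF receptor, had 1.56 and 2.81, and its call in the non-follicular pair was lost without slide 2 (1.61, adjusted p 0.0570).

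The suppressive and effector products were called higher for 16 of 22 measured genes in Treg and 12 in TFR cells, 10 in both, and lower for 0, beside 4.94%, 5.0% and 2.19% of all probes. Ebi3, a subunit of IL35, had log2 fold changes of 4.47 (SE 0.30) and 2.10 (SE 0.30). Penk, the enkephalin precursor, was at 155, 121 and 54 in Tnaive and 5981, 6554 and 15332 in TFH cells, and at 6099, 3435 and 3644 in Treg and 52318, 52318 and 81836 in TFR cells. Its TFH arrays thus overlapped its Treg arrays, yet it was higher in Foxp3+ cells within each pair (5.40 and 2.85). Fgl2, a secreted fibrinogen-like protein, was at least 11.5-fold higher in Treg cells, with 3.36 in the follicular pair. Nrn1 (2.07 and 2.04) and Ccr8 (1.18 and 3.11) completed the calls that no left-out slide or array ended. The cytokine gene Il10 was at 1358, 582 and 125 in TFH and 1671, 2305 and 4382 in TFR cells, where TFH was lowest on d25 and TFR highest. Its follicular call (2.47, SE 0.75, adjusted p 0.036) was lost in 8 of 15 settings that left out a slide or an array (1.14 to 2.72), and its non-follicular call, at least 6.45-fold, without slide 2. Cst7 also lost its non-follicular call without slide 2 or 3 (0.99 to 1.37 over 5 settings) and its follicular call without slide 3 (1.52, adjusted p 0.0585). Havcr2 was below background in Tnaive cells and detected on 1 of 3 Treg arrays, so that no fold is given for this pair. Areg (1.66, not called without slide 2 at 1.58) and Prdm1 (2.22) were called higher in TFR cells alone, and Il1r2 (4.42) and Lag3 (1.98) in Treg cells alone. Not called in either pair were Tgfb1 (0.65 and 0.93), Cd274, Furin and Prf1.

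In the IL2 receptor and STAT5 pathway, 4 of 17 measured genes were higher in both pairs (2.19% of all probes were), Il2ra, Il2rb, Cish and Socs2. Cish and Socs2 are feedback inhibitors that STAT5 induces. Cish was at 2866, 1818 and 2220 in Tnaive and 872, 1664 and 1581 in TFH, but 24323, 23325 and 22451 in Treg and 17175, 19756 and 22846 in TFR cells. The 4 fractions fell into 2 levels by Foxp3, with log2 fold changes of 3.37 (SE 0.25) and 3.91 (SE 0.25). Socs2 had 6.13 (SE 0.25) and 3.54 (SE 0.25). Socs1 (1.51) and the kinase gene Pim1 (1.48) were higher in Treg cells alone, Pim2 was lower in TFR cells alone (-1.08), and 9 genes were called in neither pair. The call of Pim2 was lost without TFH d12 replicate 1 (-1.0 on the log2 scale).

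Costimulatory and inhibitory receptors were higher for 12 of 23 genes in Treg cells (0 lower) and for 8 in TFR cells (2 lower), where 4.94% and 5.0% of all probes were higher and 1.92% and 3.89% lower. Shared were Tnfrsf18, Tnfrsf1b, Cd83, Cd86 and Tnfrsf4. Cd86, a ligand of CTLA4 known from antigen-presenting cells, was at 530, 666 and 806 in Tnaive, 314, 346 and 438 in TFH, 2163, 2356 and 3153 in Treg and 1727, 2328 and 3813 in TFR cells, so that all Foxp3+ arrays exceeded all Foxp3- arrays. Cd83 had log2 fold changes of 3.01 (SE 0.30) and 1.63 (SE 0.30). Tnfrsf4 (OX40) had 3.82 (SE 0.15) and 1.73 (SE 0.15), with TFH cells at 61304, 46378 and 44381 far above Tnaive cells at 5732, 6734 and 6861.

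Chemokine receptors, integrins and homing molecules were higher for 14 of 30 genes in Treg cells and for 16 in TFR cells, and lower for 0 and 2, beside 4.94% and 5.0% of all probes higher and 1.92% and 3.89% lower. In both pairs 8 were higher, among them Ccr2, Ccr3, Ccr6, Ccr8, Gpr15, Fut7 and Itgae. Ccr6, the receptor of CCL20, was at 274, 733 and 471 in Tnaive, 3107, 2665 and 1879 in TFH, 6808, 4369 and 4499 in Treg and 21209, 22846 and 26945 in TFR cells. Its level was higher in TFR than in Treg cells on every slide, and the log2 fold changes were 3.49 (SE 0.35) and 3.24 (SE 0.35). Gpr15, which guides T cells to the large intestine, had 3.45 (SE 0.25) and 2.61 (SE 0.25). Ccr3 was below background in Tnaive and TFH cells, with bounds of at least 3.52-fold and 2.50-fold. Ccr2 and Fut7 were called in both pairs but not without slide 2 in the follicular pair (log2 fold changes with all slides 2.43 and 1.81). Ccr2 was also lost without slide 3, at 2.45 to 2.76 over both settings, and Fut7 was at 1.85 without slide 2. In the follicular pair alone, the T zone and recirculation genes Ccr7 (1.67), S1pr1 (1.40) and Selplg (1.53) were higher in TFR cells, and between Treg and Tnaive cells their values were -0.36, -0.13 and 0.17.

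Among 38 transcription factors, 3 were higher in both pairs (Gata1, Ikzf2, Ikzf4) and 1 was lower (Tcf7), where 2.19% and 0.722% of all probes were. Gata1, known from red cell and mast cell development, was at 2278, 1847 and 1747 in Tnaive, 106, 147 and 80 in TFH, 8872, 8974 and 9544 in Treg and 922, 1182 and 1541 in TFR cells. Treg cells were thus highest on each slide and TFR cells lay below Tnaive cells, while the log2 fold changes within the pairs were 2.23 (SE 0.24) and 3.46 (SE 0.24). Ikzf4 was at 3455, 2076 and 2365 in Tnaive, 621, 693 and 968 in TFH, 22189, 18889 and 18067 in Treg and 23943, 22833 and 30232 in TFR cells. Tcf7 (TCF1) had -1.07 (SE 0.11) and -1.48 (SE 0.11), and its non-follicular value fell under the 2-fold minimum without slide 1 or without Tnaive d12 replicate 1 (-0.98 and -0.96). Runx3 (1.71), Bach2 (1.28) and Prdm1 were higher in TFR cells alone. Irf4 (1.77), Rora (1.87) and Maf (2.37) were higher in Treg cells alone, and the call of Maf was lost without slide 2 (2.56, adjusted p 0.0542).

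Of 17 genes of TGF-beta activation and signalling, Lrrc32, Nrp1 and Tgfbr1 were higher in both pairs and Tgfbr3 was lower, beside 2.19% and 0.722% of all probes. Tgfbr1, the type I receptor, had log2 fold changes of 1.08 (SE 0.19) and 1.58 (SE 0.19), of which the first was not called without slide 2 or 3, Treg d12 replicate 1 or Tnaive d25 (0.89 to 1.16). In the follicular pair alone, Smad7, which inhibits the pathway, was higher (2.81, SE 0.11) and the ligand gene Tgfb3 was lower (-2.86, SE 0.28). Among 20 genes of purines and cyclic nucleotides, Entpd1, Cd38, P2ry10 and Prkar1b were higher in both pairs and the phosphodiesterase genes Pde3b and Pde7a were lower, beside the same shares of all probes. Pde7a had -1.02 (SE 0.10) and -1.27 (SE 0.10), and its non-follicular value fell under 2-fold in 5 settings (-1.0 to -0.97), slide 2 among them. Cd38, which consumes NAD, was higher by 1.92 and 1.45, and neither call held without slide 2 (1.88 and 1.16). P2ry10 (1.21 and 1.07) lost its follicular call without slide 3 or TFR d25 (0.84). Prkar1b was below background in TFH cells and detected on 1 of 3 TFR arrays, so that no follicular fold is given, and its call there was lost without slide 1 and under 75th percentile scaling, quantile normalisation over the 12 arrays and normexp correction (fitted values from 0.34 to 0.99).

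The 21 genes known as typical of conventional CD4 T cells did not move as a block. In both pairs 6 were lower (Pde3b, Tgfbr3, Dapl1, Rflnb, Themis and Tcf7) and 2 were higher (Cd81 and Dusp4), beside 0.722% and 2.19% of all probes. Themis, a regulator of antigen receptor signals, was at 6979, 7751 and 7849 in Tnaive and 6977, 9139 and 8220 in TFH cells, and at 3027, 3220 and 3067 in Treg and 1878, 2132 and 2252 in TFR cells. All Foxp3- arrays lay above all Foxp3+ arrays, with log2 fold changes of -1.28 (SE 0.08) and -1.95 (SE 0.08). Rflnb had -1.43 (SE 0.16) and -2.30 (SE 0.16). Dapl1 was lower by -2.75 (SE 0.23) in the non-follicular pair, and its follicular call (-1.15) was lost without slide 2 or 3 or the TFH or TFR array of d12 replicate 2 (-1.27 to -0.72). Lef1 (-1.52) and Igfbp4 (-1.24) were lower in Treg cells alone, and their values in the follicular pair were -0.36 and 0.21. The tetraspanin gene Cd81 was higher in both (1.27 and 1.81).

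Helper cytokines and related ligands were measured for 14 of 22 genes, with Il2 and Il21 lower in both pairs and Lta higher, beside 0.722% and 2.19% of all probes. Lta (lymphotoxin alpha) had log2 fold changes of 1.56 (SE 0.11) and 1.02 (SE 0.11), of which the second fell under 2-fold without slide 3, either d12 TFH array or TFR d25 (0.91 to 0.99). Lower in TFR than in TFH cells alone were Il4 (-3.53, SE 0.59), Tnfsf8 (CD30 ligand; -2.67, SE 0.12) and Cd40lg (CD40 ligand; -1.50, SE 0.29). Higher in Treg than in Tnaive cells alone were Ifng (at least 2.63-fold), Tnfsf11, Tnfsf14 and Tnf. The call of Tnf (1.07) was lost without any 1 of the 3 slides (0.73 to 1.20, single arrays included). Of 22 antigen receptor signalling genes 18 were called in neither pair, where 6.86% and 8.88% of all probes were called in the non-follicular and the follicular pair. Rgs1 was higher in both (5.20 and 1.61), and Cd247 (-1.06) and Plcg1 (-1.0) were among those lower in TFR cells alone, the last not without slide 1 and some single arrays (-0.99 to -0.80).

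**Figure D2:**
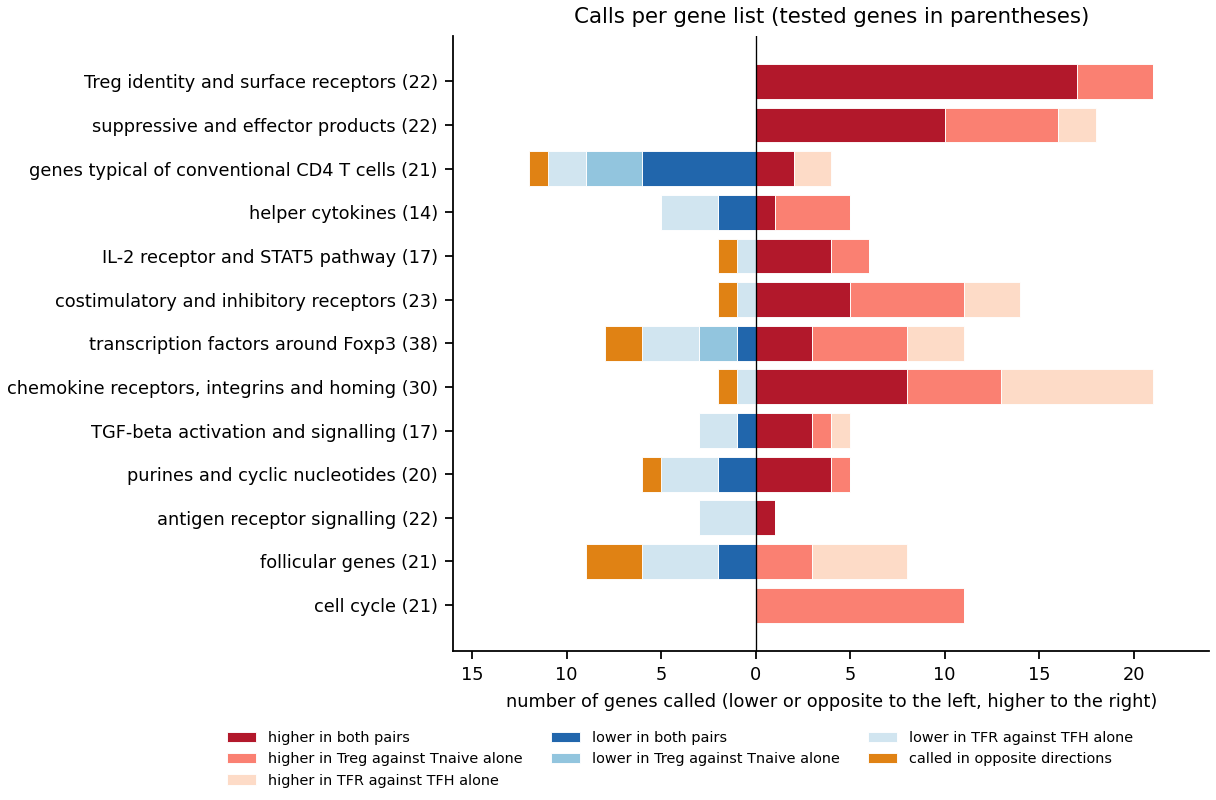
Number of measured genes of each list called in the comparisons (horizontal axis, genes; measured genes in parentheses), with those called higher to the right of 0 and those called lower or in opposite directions to the left. The dark red segment of Treg identity holds 17 of 22 genes, and the cell cycle list has 11 genes higher in Treg against Tnaive cells and 0 called in both pairs.

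The pairs were then compared with each other by the interaction, the difference of TFR minus TFH less that of Treg minus Tnaive. It called 1410 probes (7.54%), 562 with a larger value in the follicular pair (3.01%) and 848 with a smaller value (4.54%), values being taken with their sign. Among the 409 shared higher probes 34 had a called larger and 55 a called smaller value, and 320 (78.2%) passed in neither direction, which does not show that the differences were equal. Among the 135 shared lower probes these numbers were 7, 12 and 116 (85.9%). Of the 469 probes higher in Treg cells and not called in the follicular pair, 326 had a fold change above 0 there and 263 were called in the interaction. Of the 504 higher in TFR cells and not called in the non-follicular pair, 372 had a value above 0 and 269 were called. For the others a difference between the pairs was not shown.

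Of the 22 Treg identity genes 10 had a called smaller value in the follicular pair and 1 (Ikzf4) a larger one, while 11 passed in neither direction (4.54% and 3.01% of all probes were called smaller and larger). Ikzf2 was at 41, 117 and 92 in Tnaive cells, below background, and at 5878, 6093 and 6497 in TFH, 7274, 7652 and 6808 in Treg and 9676, 15646 and 22392 in TFR cells. TFH cells therefore lay close to the Treg cells, and Treg cells were at least 87.6-fold above Tnaive cells. The interaction of -5.28 (SE 0.42, adjusted p 0.00014) is a fitted value that depends on the Tnaive signals below background. Ctla4, an inhibitory receptor for CD80 and CD86, was at 374, 712 and 671 in Tnaive, 13787, 6589 and 6963 in TFH, 13800, 8561 and 7352 in Treg and 11537, 12845 and 16444 in TFR cells. Its follicular log2 fold change of 0.65 (SE 0.37, adjusted p 0.221) was not called, and the interaction was -3.43 (SE 0.53, adjusted p 0.0033). Tigit, another inhibitory receptor, had 3.82 in the non-follicular pair, 0.19 in the follicular pair and -3.63 (SE 0.55, adjusted p 0.00313) for the interaction. Nrp1 (-3.47), Il2rb (-2.86), Socs2 (-2.59), Nt5e (-2.08), Tnfrsf4 (-2.08) and Izumo1r (-1.90) had called interactions of the same sign, of which those of Socs2 and Nt5e were lost without slide 2 (-2.57 and -2.11, adjusted p 0.0565 and 0.0674). In each of these genes TFH arrays exceeded Tnaive arrays.

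**Figure D3:**
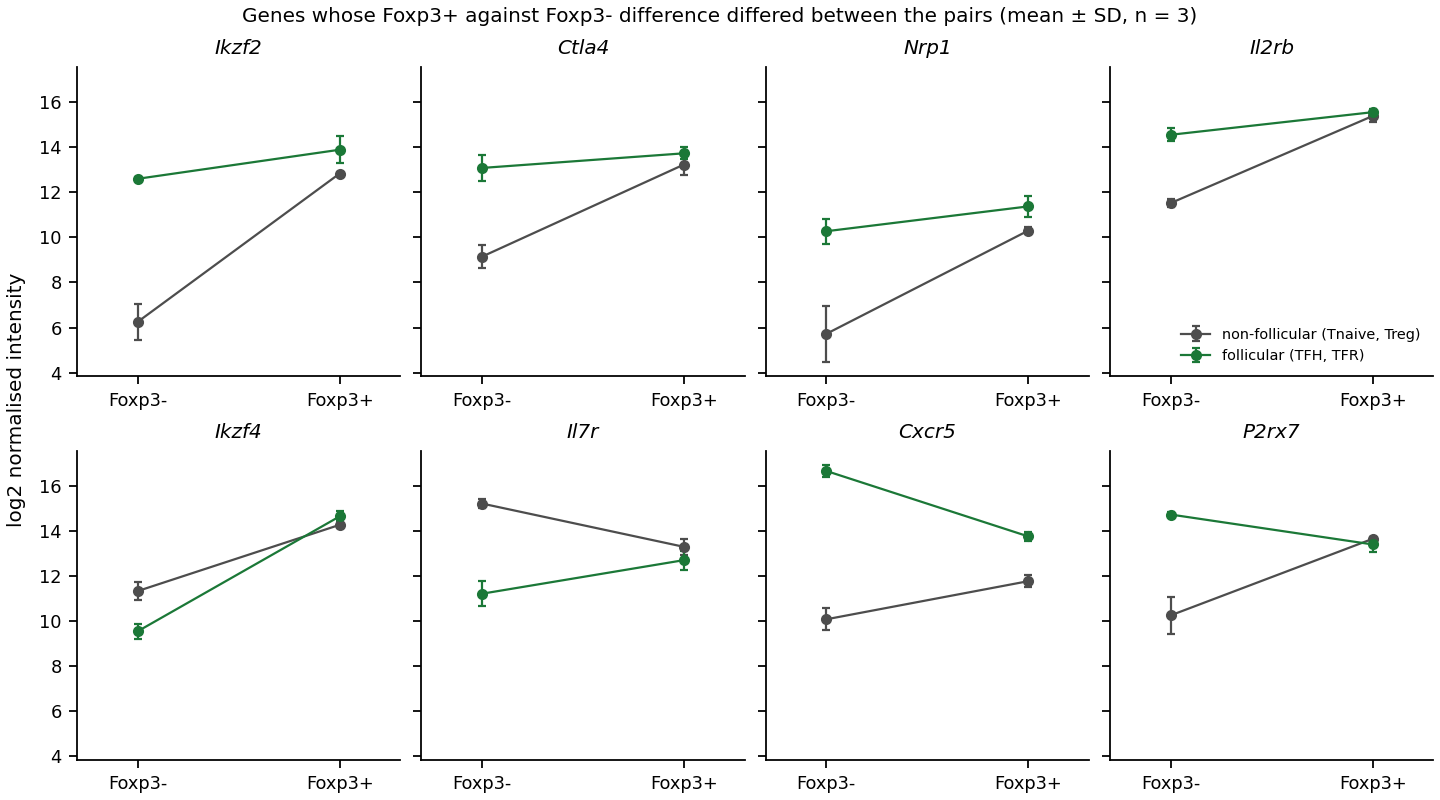
Mean ± SD (n = 3 arrays) of the log2 normalised intensity in Foxp3- and Foxp3+ cells of the non-follicular pair (grey) and the follicular pair (green) for 8 genes with a called interaction. For Ikzf2, Ctla4, Nrp1 and Il2rb the green line starts high and is flatter, and for Il7r, Cxcr5 and P2rx7 the lines slope in opposite directions.

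The 67 probes called in opposite directions (56 symbols) were all called in the interaction, 46 being higher in Treg and lower in TFR cells and 21 the reverse. Several were genes of the TFH state. Cxcr5, the chemokine receptor for the follicle, was at 803, 1557 and 1008 in Tnaive, 101941, 86197 and 122913 in TFH, 4260, 3233 and 3071 in Treg and 12125, 13683 and 15655 in TFR cells. Its log2 fold changes were 1.69 (SE 0.25) and -2.90 (SE 0.25), since TFH cells lay far above all others and Tnaive cells below them. Ascl2, a transcription factor that induces Cxcr5, was at 59656, 24717 and 43331 in TFH and 1351, 864 and 2338 in TFR cells (-4.84, SE 0.35), and at least 3.79-fold higher in Treg than in Tnaive cells. P2rx7, an ATP-gated channel, had 3.39 and -1.33, and Pdcd1, the gene of PD1, had 1.29 and -1.66. Both directions of Pdcd1 were measured within a gate on its own protein, PD1lo in the non-follicular and PD1hi in the follicular pair. Il7r, the receptor for IL7, was the reverse, with 43892, 35062 and 34938 in Tnaive, 1664, 2211 and 3614 in TFH, 13149, 8182 and 9254 in Treg and 6759, 4925 and 8820 in TFR cells. The Foxp3+ fractions lay between the Foxp3- fractions, with log2 fold changes of -1.92 (SE 0.28) and 1.49 (SE 0.28). Among 21 follicular genes 0 were higher in both pairs and 2 (Il21 and Sostdc1) lower, beside 2.19% and 0.722% of all probes. The call of Sostdc1 in the non-follicular pair was lost without slide 3 (-1.63, adjusted p 0.115, limma).

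On the other axis of the design, the mean of the follicular against that of the non-follicular fractions, 3079 probes were called (16.5%), 2011 higher (10.8%) and 1068 lower (5.71%), whereas with no minimum fold change 5520 were higher and 7243 lower. Of the 409 probes higher in both Foxp3+ fractions, 232 (56.7%) were higher and 26 (6.36%) lower in the follicular fractions. Of the 135 lower ones, 23 (17.0%) were higher and 41 (30.4%) lower. This contrast is orthogonal to the main effect of Foxp3 but uses the same 12 arrays and the same estimate of each probe's spread. A small spread favours a call in either, so these counts are not independent of the choice of the shared probes. On the X chromosome, which holds Foxp3, lay 21 of the 409 and 4 of the 135 shared probes, against 679 of the 18698 tested.

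Peyer's patches (PP) of the same strain offered arrays that chose none of the shared probes. They hold TFR cells and TFH GL7+ cells (2 arrays each) but no naive fraction, so only a follicular pair can be read. There 1114 probes were called (5.96%), 710 higher (3.80%) and 404 lower (2.16%) in TFR cells, and with no minimum fold change 1347 higher and 1668 lower. Of the 409 shared higher probes of pLN, 271 (66.3%) were called higher in PP and 0 lower, and 388 (94.9%) had a fold change above 0, against 42.6% of all tested probes. Of the 135 shared lower probes, 61 (45.2%) were called lower and 1 higher, and 121 (89.6%) had a fold change below 0, against 57.2%. The median log2 fold changes in PP were 1.52 and -0.96. PP and pLN arrays were fitted together, so the spread in the PP test came partly from the pLN arrays. The shared probes were called on those pLN arrays, where a small spread favours a call. The counts of PP calls are therefore not independent of that choice, whereas the sign of a PP fold change rests on the PP arrays. Leaving out PP slide 4 leaves 1 array per PP fraction, where the spread would come from the pLN arrays alone, so no count of calls is read from it. The B cell transcript Spib was at 4273 in PP TFR replicate 1 on this slide and at 65 in replicate 2.

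Foxp3 was at 41 and 39 in PP TFH GL7+ and at 19243 and 13409 in PP TFR cells, in the order of the 2 replicates (log2 fold change 8.66, SE 0.35). Il2ra was at 63 and 112 against 1191 and 3268, a log2 fold change of 4.56 (SE 0.31) at a level in PP TFR cells below that of all pLN TFR arrays. Il1rl1 (5.86), Itgae (5.28), Klrg1 (6.26), Lrrc32 (6.22) and Ikzf4 (4.58) were called as well. Among the lower genes, Pde3b had -3.59 (SE 0.19), Il2 -3.64 (SE 0.65) and Tgfbr3 -3.53 (SE 0.21). Gzmb was called in PP with all arrays (1.95, SE 0.47), but not when any 1 of the PP TFR or TFH GL7+ arrays or slide 4 was left out (1.73 to 2.16). The only probe called in opposite directions was 1 of the 2 tested probes of Epas1 (HIF2-alpha). It is not the brighter of the 2 in pLN, and the brighter one was not called lower in both pairs. In pLN the probe called was lower in both Foxp3+ fractions (-2.70, SE 0.21, and -1.70, SE 0.21). In PP the same probe was at 6499 and 14627 in TFH GL7+ and 21486 and 56756 in TFR cells (1.84, SE 0.31, adjusted p 0.00188, limma).

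**Figure D4:**
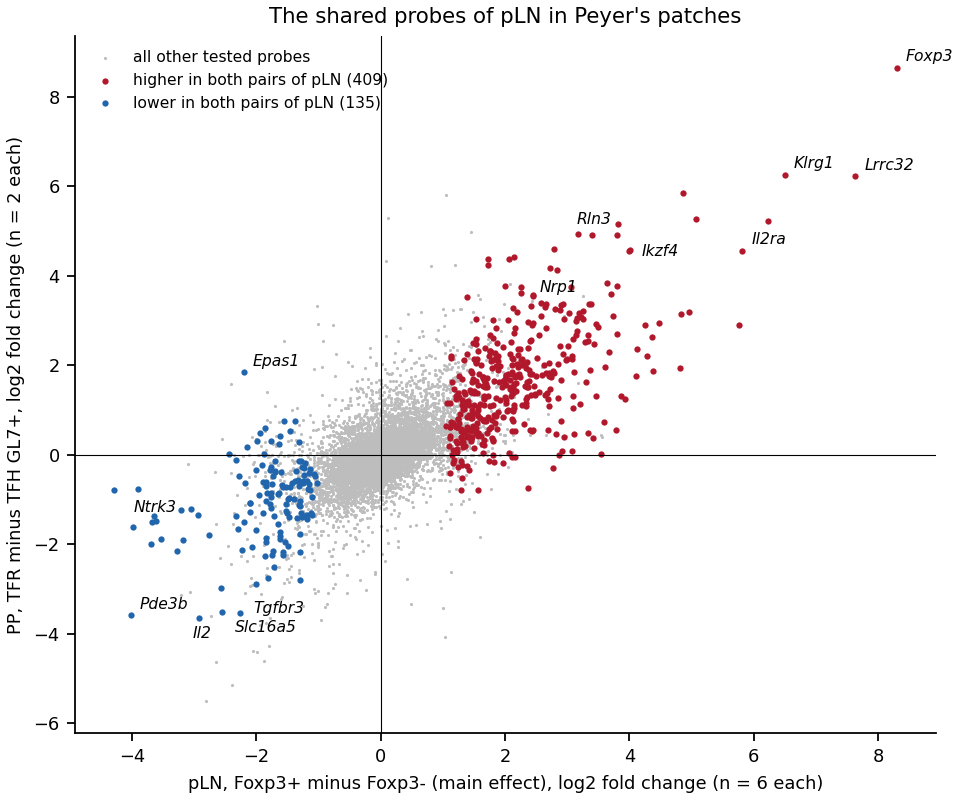
Each point is a tested probe, placed by the main effect of Foxp3 in pLN (horizontal axis, log2 fold change, n = 6 arrays each) and by PP TFR minus PP TFH GL7+ (vertical axis, log2 fold change, n = 2 arrays each), with the 409 shared higher probes in red and the 135 shared lower ones in blue. Most red points lie above 0 (388 of 409) and most blue points below (121 of 135), with Epas1 as the called exception.

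Transcripts of other cells were compared between the fractions beside these results. Of all tested probes 4.94% were higher and 1.92% lower in Treg cells, and 5.0% were higher and 3.89% lower in TFR cells. B cell markers were measured for 8 of 13 genes, and their summed normalised intensity ranged from 4465 to 12298 in Tnaive, 6608 to 25256 in TFH, 9321 to 17421 in Treg and 7272 to 8598 in TFR cells. Of these 8, Spib (-2.70) and Cd22 (-1.42) were lower in TFR than in TFH cells, and neither call held without slide 2 (Spib -3.01 to -2.12 over 6 settings, Cd22 -1.43). Of 3 measured plasma cell markers 0 were called, with sums from 2890 to 87154 in TFH and 3547 to 14568 in TFR cells. Of 7 myeloid markers, Fcgr3 was lower in Treg cells (-2.44, not called without slide 3 at -2.36) and Cd68 was lower in TFR cells. Of 6 markers of CD8 T and NK cells, Eomes was lower in both pairs (-1.53 and -2.25), a call lost in the follicular pair without slide 2 (-2.0) and in the non-follicular pair without any 1 slide or 7 single arrays (-1.70 to -1.28). Klrd1 was lower in Treg cells alone (-2.02). Of 3 measured epithelial markers Epcam and Krt18 were higher in both pairs, at 789, 1198 and 1318 for Epcam in TFR cells against 197, 244 and 142 in TFH cells. Its non-follicular call (1.06) was lost without any 1 slide, Treg d12 replicate 1 or Tnaive d25 (0.92 to 1.23). Of 4 measured markers of stroma and endothelium, Col1a2 was higher (2.29) and Pecam1 lower (-1.01) in TFR than in TFH cells, 0 were called between Treg and Tnaive cells, and Pecam1 was lower in PP (-1.01). The calls of Pecam1 were lost without slide 1 or 3 or some single arrays in pLN (-0.98 to -0.91), and without replicate 2 of either fraction in PP (-0.94 to -0.78). Their sums were 4098 to 4726 in Tnaive, 2933 to 4438 in TFH, 3183 to 4053 in Treg and 1884 to 2397 in TFR cells. The 1 measured marker of red cells and platelets and the 3 measured sex-linked genes were called in neither pair by limma. The part of other cells in the shared calls was not tested.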

How the data were processed

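RNA of sorted CD4 T cells was measured on single-colour Agilent arrays. The authors scanned the arrays with Agilent Feature Extraction (10.7.3.1 per the labels) and deposited the processed signal of each feature as intensity. A table of their own normalised intensities was deposited too. From the deposited intensity the 4 features of a probe were averaged as a geometric mean (features beyond 1.42 interquartile ranges or with a pixel variation above 0.5 were left out), quantile normalised over 20 arrays, brought to 1500 at the 75th percentile, set to at least 20 and put on the log2 scale. A probe counted as detected with 3 or more of the 4 features well above background, and was tested where it was detected on all 3 arrays of a pLN fraction. Probe positions are those of the array files (mm9).

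limma 3.58.1 in R 4.3.3 fitted the means of the 4 pLN fractions with slide as a fixed block (12 arrays, 6 residual degrees of freedom), and the PP contrast came from a fit over all 20 arrays (9 residual degrees of freedom). P-values were adjusted by Benjamini-Hochberg over all tested probes. A call needed an adjusted p under 0.05 and at least 2-fold. ANOVA with Tukey's test, which the study used for genes in its figures, was run as an alternative in another form. It took the 4 pLN fractions with both days pooled, and had the same adjustment over all tested probes and the same 2-fold minimum. At least so many fold compares the brighter mean with, on each dim array, the higher of the probe's own signal and the lowest signal that counted as detected. For genes with several probes the probe of highest mean intensity stands for the gene, except for Epas1.

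The text names genes of 13 fixed lists and 9 marker lists, the 15 leading higher and 10 leading lower shared genes by the smaller change of both pairs, the 5 leading genes in each direction of the interaction, and up to 10 genes called in opposite directions. Some list members are not reported here. Epas1 and Lbp were named as single exceptions after their values were seen. The members and lists were chosen with earlier results of these data known. Samples were grouped by their labels, which carry no replicate numbers, and the pairing of arrays comes from the slide they share. Alternatives covered the background correction, normalisation, averaging, filter, fold minimum, block, day and each left-out array. Scripts were tested on simulated data. Python 3.11.15, pandas 2.3.3 and matplotlib 3.10.9 made the tables and plots.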

Additional observations from a re-analysis of the deposited data

Results flagged for a closer look

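The difference of Foxp3+ from Foxp3- cells was itself different between the follicular and the non-follicular pair on 1410 probes, by the interaction in limma (Benjamini-Hochberg). Of the genes described above and listed here, 74 passed this test. Values are log2 differences of TFR minus TFH less Treg minus Tnaive, and where a fraction was below background they are fitted values that depend on the floor. Larger and smaller refer below to the value with its sign, not to the size of the difference. Pde3b, lower in Foxp3+ cells, thus stands under smaller although its difference was larger in size in the follicular pair. The reverse holds for Dapl1.

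Larger in the follicular pair were Pdlim4 (4.78), Vegfc (4.60), Elovl7 (4.55), Dscam (4.50), Tdpoz4 (4.26), Car2 (3.42), Il7r (3.41), Smad7 (3.30), Runx3 (2.40), Ikzf4 (2.16), Col1a2 (2.12), Ccr7 (2.03), Havcr2 (2.02), Ccr8 (1.93), Bach2 (1.73), Dapl1 (1.60), S1pr1 (1.53), Epcam (1.45), Igfbp4 (1.45), Selplg (1.36), Prdm1 (1.33), Klrd1 (1.27), Gata1 (1.23), Lef1 (1.16) and Prf1 (1.04). These arose in different ways. Pdlim4 was at 21891, 22047 and 21198 in Tnaive cells and under 600 in the other fractions. Vegfc, a lymphatic growth factor, was at 1180, 983 and 878 in TFR cells, at least 19.4-fold above TFH cells. Tdpoz4 was at 299, 321 and 590 in TFR cells and at the floor of 20 on all other pLN arrays.

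Smaller in the follicular pair were Ascl2 (-7.62), Abcc3 (-6.62), Plagl1 (-6.20), Fam43a (-5.99), Slc43a1 (-5.84), Popdc2 (-5.32), Ikzf2 (-5.28), Krt81 (-4.79), P2rx7 (-4.72), Cxcr5 (-4.59), Osgin1 (-4.37), Sostdc1 (-4.12), Prodh (-4.05), Il4 (-3.82), Dhrs3 (-3.66), Il1r2 (-3.65), Tigit (-3.63), Maf (-3.59), Rgs1 (-3.59), Nrp1 (-3.47), Ctla4 (-3.43), Lag3 (-2.96), Pdcd1 (-2.95), Il2rb (-2.86), Tnfsf11 (-2.76), Dusp4 (-2.71), Tnfsf8 (-2.71), Prkar1b (-2.70), Socs2 (-2.59), Penk (-2.55), Il21 (-2.54), Ifng (-2.53), Tgfb3 (-2.51), Il2ra (-2.38), Ebi3 (-2.37), Tnfsf14 (-2.37), Nt5e (-2.08), Tnfrsf4 (-2.08), Izumo1r (-1.90), Tnf (-1.77), Tk1 (-1.56), Cd22 (-1.43), Pde3b (-1.41), Irf4 (-1.40), Cd68 (-1.28), Ccna2 (-1.19), Cnga1 (-1.08), Socs1 (-1.08) and Ntrk3 (-1.07).

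Of these 74 calls 34 were lost when a slide or an array was left out, with the values in parentheses. Some of them were also lost without single arrays. Without slide 1 these were Igfbp4 (1.14) and Prf1 (0.86 to 0.95). Without slide 2 they were Maf (-3.89), Nt5e (-2.11), Socs1 (-0.99 to -0.97), Socs2 (-2.57) and Tgfb3 (-2.66), and without slide 3 Ccr7 (2.07), Col1a2 (1.98), Havcr2 (1.49), Ifng (-2.54), Pde3b (-1.40), Runx3 (2.42), Tk1 (-1.57) and Tnf (-1.90). The calls lost without slide 1 and without slide 2 were those of Lef1 (0.89 to 1.34) and Penk (-2.92 to -2.01). Without slide 1 and without slide 3 they were those of Cd68 (-1.18 to -1.10), Dapl1 (1.19 to 1.55), Il21 (-2.97 to -1.96), Klrd1 (1.21 to 1.31) and S1pr1 (1.19 to 1.66), and without slide 2 and without slide 3 those of Ebi3 (-2.64 to -2.61), Epcam (1.21 to 1.38), Il1r2 (-4.55 to -3.24), Il4 (-4.60 to -4.31), Prdm1 (0.83 to 1.35) and Tnfsf14 (-2.72 to -2.61). Without each of the 3 slides in turn the calls of Ccna2 (-1.39 to -0.83), Cd22 (-1.81 to -0.87), Cnga1 (-1.22 to -0.87), Gata1 (0.94 to 1.49), Irf4 (-1.73 to -0.88) and Ntrk3 (-1.25 to -0.88) were lost.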

How the results depend on the processing

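Called values of the genes rerun under the alternatives kept their sign, but the split of the calls did not. With no minimum fold change the share of higher calls went from 66.9% to 50.3% for the main effect, from 72.0% to 52.7% for Treg against Tnaive, from 65.3% to 43.25% for follicular against non-follicular and from 63.7% to 44.7% in PP, so that lower calls led in the last 2. By ANOVA with Tukey's test it was 48.2% for Treg against Tnaive, and on probes detected on all 12 arrays 53.7% for follicular against non-follicular. With normexp background correction, 807 probes were called for the main effect, 853 for Treg against Tnaive, and 269 higher (265 of them among the 409) and 80 lower (80 of them among the 135) in both pairs. Restricted to the 15663 of 18698 probes detected on all 12 arrays, the counts were 513 for the main effect, 573 for Treg against Tnaive, 826 for TFR against TFH, 724 for the interaction, 1560 for follicular against non-follicular, 546 in PP, and 149 and 78 shared. All of these 149 and 78 are among the 409 and 135, and the other shared probes were undetected on some arrays. With no minimum fold change they were 6874, 4069, 5917, 3024, 12763 and 3015, with 1066 and 724 shared. ANOVA with Tukey's test, in the form given for the processing, gave 340 for Treg against Tnaive and 826 for TFR against TFH. It gave 70 and 19 shared (69 and 19 of them as before). The cause of these differences was not tested.

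Without the slide as replicate block, 1256 probes were called for the main effect, 1094 and 1475 in the pairs and 984 in the interaction, with 350 and 116 shared. Leaving out a slide or an array gave 1198 to 1401 for the main effect, 1096 to 1349 for Treg against Tnaive, 1496 to 1838 for TFR against TFH, 916 (slide 2) to 1514 for the interaction, 2959 to 3230 for follicular against non-follicular, 327 to 427 shared higher, 108 to 142 shared lower and 802 to 1106 in PP. Of 115 named genes called in the non-follicular pair 27 lost the call in at least 1 of these, as did 24 of 118 in the follicular pair, 34 of 74 in the interaction and 9 of 36 in PP. Settings of processing or fit ended 16, 14, 21 and 7 of these calls. ANOVA with Tukey's test ended 75 in the non-follicular and 49 in the follicular pair. Under all alternatives 38 of the 115, 65 of the 118, 39 of the 74 and 26 of the 36 were kept. Signal over background limits what can be read for the 175 shared higher probes unmeasured in Tnaive cells.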

Other observations

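Of a list of 21 measured cell cycle genes, 11 were higher in Treg than in Tnaive cells (4.94% of all probes were) and 0 were called in TFR against TFH cells by limma (5.0% were higher and 3.89% lower). The median log2 fold change of the list was 1.36 in the non-follicular and 0.74 in the follicular pair. The list does not speak for all such genes. Outside it Melk (2.91 and 1.32), Dtl (2.18 and 1.05), Uhrf1 (1.69 and 1.03) and Foxm1 (1.22 and 1.00), among others, were called higher in both pairs. They were named after their values were seen. Ccna2, the cyclin A2 gene, was at 687, 729 and 348 in Tnaive, 5075, 2281 and 1174 in Treg, 16322, 13179 and 7919 in TFH and 31934, 22692 and 15424 in TFR cells. In each fraction the d25 array was the lowest, and both follicular fractions lay above both non-follicular ones. Its log2 fold change was 2.09 (SE 0.23) between Treg and Tnaive and 0.90 (SE 0.23, adjusted p 0.0167) between TFR and TFH cells, the latter under the 2-fold minimum. Tk1, thymidine kinase, had 2.34 (SE 0.22) and 0.78 (SE 0.22, adjusted p 0.0284). Of the 21 genes, 4 had a called smaller value in the follicular pair (4.54% of all probes had), Ccna2 (-1.19) and Tk1 (-1.56) among them. The call of Tk1 was lost without slide 3 (-1.57) and that of Ccna2 without any 1 slide and 9 single arrays (-1.39 to -0.83).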
